A study of Mus musculus with 6 samples.

Results

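Interleukins are secreted proteins through which immune, bone and epithelial cells signal to each other, and the genes described here encode the interleukins, their receptor chains and the related cytokines of the gp130 family. They were measured in the calvaria (the bones that form the top of the skull) of B6N mice at postnatal day 3. The genes were chosen by name, as every entry of the expression table whose symbol begins with Il and a digit, apart from *Il34*, together with *Lif*, *Lifr*, *Osm*, *Osmr*, *Ctf1* and *Clcf1*. This gave 89 of the 32350 entries. 1 of them merges *Il4i1* with *Nup62* and encodes neither an interleukin nor a receptor chain. It is counted among the members and was tested. 3 pups were homozygous for a frameshift mutation of *Tmem53* (*Tmem53*-/-), and 3 were heterozygous (*Tmem53*+/-) siblings, which carry a mutant and an intact allele and served as the controls. *Tmem53* encodes a transmembrane protein of the nuclear envelope. The mutation was made by CRISPR/Cas9 editing of fertilized eggs and is present in all tissues. Several lines were made, and the study's text names the line *Tmem53* 1bin/1bin for its detailed work. Each pup gave 1 library of whole calvaria, and no wild-type pup was included. Values are FPKM, fragment numbers scaled to the length of a gene's exons and to the size of the library, and are given in the order of replicates 1 to 3.

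Most interleukins bind a private receptor chain that pairs with a chain shared by several cytokines. The common gamma chain serves the receptors of IL-2, IL-4, IL-7, IL-15 and IL-21, gp130 serves IL-6, IL-11, oncostatin M and LIF, and the IL-1 receptor accessory protein serves IL-1, IL-33 and IL-36. These receptors signal through JAK kinases and STAT factors or, for the IL-1 and IL-17 families, through adaptors that activate NF-kB. In bone, IL-6, IL-11, oncostatin M and IL-1 are known to act on osteoblasts and, largely through RANKL, on the formation of osteoclasts.

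Of the 40 members tested, 7 were called at a limma adjusted p under 0.05, against 7.06% of all genes tested. *Il4ra*, *Il6*, *Il1r1*, *Osm* and *Il2rg* were lower and *Il1rap* and *Il16* were higher in *Tmem53*-/- calvaria. The 250 bases before the start of transcription are shown for *Il6* and *Il4ra*, the pair of called members with the lowest adjusted p, and for *Nfkbia*, a feedback gene of NF-kB that was called in the same direction. The sequences are those of RefSeq on GRCm38.p6. *Il6* lies at chr5:30012864-30013113 on the plus strand, *Nfkbia* at chr12:55492648-55492897 on the minus strand and *Il4ra* at chr7:125552021-125552270 on the plus strand. Capitals mark matches on either strand to 4 motifs, GGG followed by any 2 bases and TTTCC for NF-kB, TTNNGNAAT for C/EBP, TGANTCA for AP-1 and TTCNNNGAA for STAT.
*Il6*: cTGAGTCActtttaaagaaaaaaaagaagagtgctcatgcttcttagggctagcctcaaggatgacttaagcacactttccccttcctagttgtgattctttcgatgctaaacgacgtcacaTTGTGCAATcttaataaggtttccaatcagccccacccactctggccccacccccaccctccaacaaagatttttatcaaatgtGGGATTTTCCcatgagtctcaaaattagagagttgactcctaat
*Nfkbia*: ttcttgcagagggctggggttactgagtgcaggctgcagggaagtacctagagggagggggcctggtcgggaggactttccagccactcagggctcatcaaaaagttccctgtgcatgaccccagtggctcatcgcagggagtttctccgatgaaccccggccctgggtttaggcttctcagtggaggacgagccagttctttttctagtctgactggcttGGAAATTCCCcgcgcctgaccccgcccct
*Il4ra*: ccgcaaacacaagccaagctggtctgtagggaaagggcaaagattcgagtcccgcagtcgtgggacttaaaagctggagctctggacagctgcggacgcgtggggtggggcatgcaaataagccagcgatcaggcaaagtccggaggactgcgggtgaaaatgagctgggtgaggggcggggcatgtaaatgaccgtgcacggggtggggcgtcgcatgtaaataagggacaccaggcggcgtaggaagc

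The *Il6* window held 3 matches, 1 for AP-1 at 249 to 243 bases before the start, 1 for C/EBP at 128 to 120 bases and 1 for NF-kB at 44 to 35 bases. The *Nfkbia* window held 1 NF-kB match at 29 to 20 bases, and the *Il4ra* window held none of the 4. Among the 32851 RefSeq windows of the same length, 1.41% held the NF-kB letters, 10.2% the C/EBP letters, 6.75% the AP-1 letters and 7.02% the STAT letters. A promoter was in the table for 66 of the 89 members and 6 of the 7 called. In the other called members, *Il16* had an NF-kB and an AP-1 match and *Il1r1* had a C/EBP match in each of its windows, while *Il1rap* and *Il2rg* had none. *Nfkb2* and *Socs3*, also called lower and described below, were searched too, and *Nfkb2* had a lower adjusted p than *Nfkbia*. Of the *Nfkb2* windows, 1 held NF-kB and STAT matches, 1 only an AP-1 match and 1 only an NF-kB match. The *Socs3* window held a STAT match and no NF-kB match. A match is a description of the letters and not a site that was tested.

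The levels of ligands and of receptor chains differed widely. Of 43 ligand genes, 26 averaged less than 0.1 FPKM across pups, 12 were listed at 0 in all of them and none reached 10 FPKM, the highest mean being 8.88 FPKM for *Il18*. Of 40 genes of receptor chains, 11 had a mean of at least 10 FPKM. The ligands listed at 0 in every library included *Il2*, *Il9*, *Il17a*, *Il17f* and *Il22*, which are products of activated lymphocytes. A listed 0 need not mean that a gene is silent, since *Col1a2*, an abundant bone collagen gene, was listed at 0 in *Tmem53*-/- replicate 3 and *Tmem53*+/- replicate 2 beside 2310 to 3300 FPKM in the other pups. In all, 40 members had a mean of at least 0.5 FPKM and were tested, and 49 were not. Of the 40, *Il6*, *Il1f9* and *Il18rap* had a mean under 0.5 FPKM in 1 genotype.

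Among the 40 members tested, 2 were called higher and 5 lower, or 17.5%, against 7.06% of the 13535 genes tested (3.44% higher and 3.63% lower). *Il6*, which is 1 of the 5, *Il1f9* and *Il18rap* passed the filter only through their level in *Tmem53*+/- pups. Of the 37 members with a mean of at least 0.5 FPKM in both genotypes, 6 were called. A share over all genes limited in the same way was not computed. The genotypes did not overlap for 21 members, or 52.5%, with *Tmem53*-/- above for 4 and below for 17. Over all genes tested the genotypes did not overlap for 37.2%, with *Tmem53*-/- above for 21.2% and below for 16.0%. The median log2 fold change was -0.36 over the members and 0.05 over all genes tested. The direction was unequal between the roles. In the 23 receptor chains tested the median was -0.52, with *Tmem53*-/- below *Tmem53*+/- without overlap for 13 and above for 1, while in the 13 ligands it was -0.01, with 4 below and 3 above. The plot of fold changes by role shows this spread.

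**Figure D1:**
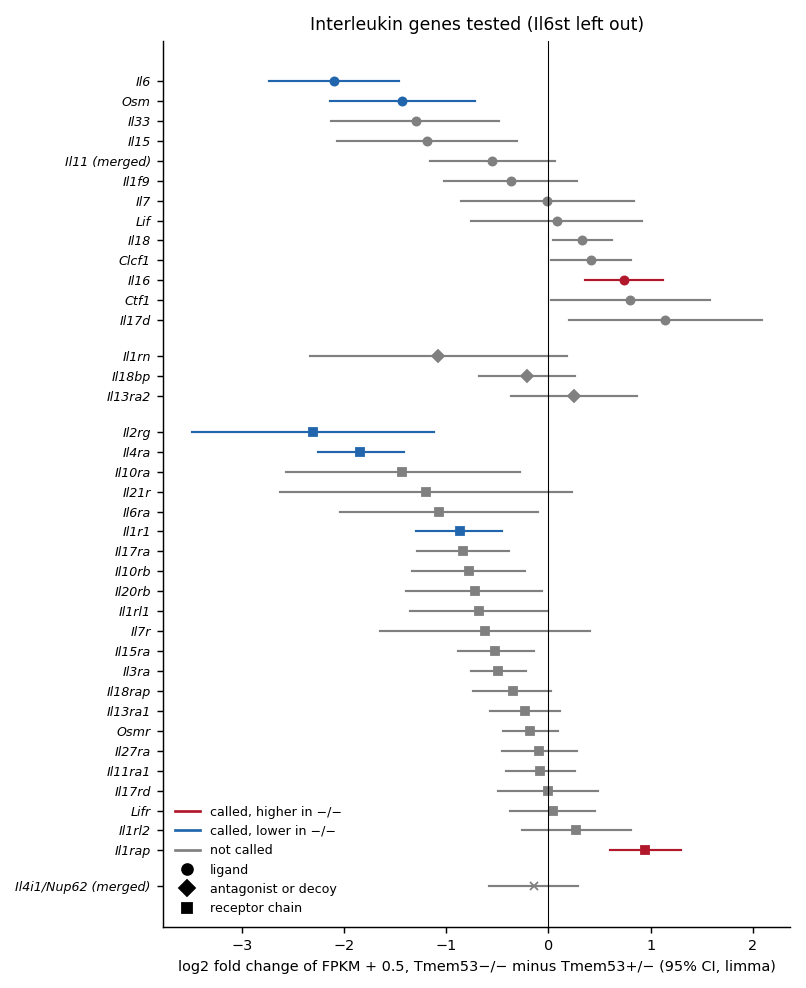
The x axis gives the log2 fold change of FPKM + 0.5, *Tmem53*-/- minus *Tmem53*+/-, with its 95% confidence interval from limma, and each row is 1 of the 40 tested members other than *Il6st*. Circles are ligands, diamonds antagonists or decoys, squares receptor chains and the cross the merged entry of *Il4i1* and *Nup62*. Red and blue mark members called higher and lower, and most squares stand left of 0 with *Il2rg* at -2.30 and *Il4ra* at -1.84.

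*Tmem53* itself had 13.9, 10.9 and 10 FPKM in *Tmem53*-/- pups, against 7.22, 6.38 and 7.16 FPKM in *Tmem53*+/- pups, and since a frameshift can leave the transcript in place this does not check the genotypes. The libraries also differed in sex and in markers of other cells. *Xist*, which comes from the inactive X chromosome, was between 0.00446 and 0.0409 FPKM in *Tmem53*-/- pups, against 102, 0.043 and 102 FPKM in *Tmem53*+/- pups, and the Y-linked *Ddx3y* was between 27.3 and 31.9 FPKM in *Tmem53*-/- pups, against 0.03, 36.0 and 0 FPKM. These values match male pups in all *Tmem53*-/- pups and in *Tmem53*+/- replicate 2 alone, so that part of the genotype difference cannot be told apart from sex. Summed FPKM of 11 macrophage markers were 545, 836 and 78.7 in *Tmem53*-/- pups, against 1460, 1110 and 1310 in *Tmem53*+/- pups. By limma 0 of these 11 were called and 3 (27.3%) had an unadjusted p under 0.05, against 27.9% of all genes tested. Sums of 7 osteoclast markers were 204, 229 and 340, against 3840, 673 and 2740. Of these, 4 of 6 tested were called lower, against 3.63% of all genes tested. *Tmem53*-/- replicate 3 was thus lowest for macrophage markers, and *Tmem53*+/- replicate 2 lowest of its genotype for osteoclast markers. Summed chondrocyte markers were 3820, 2050 and 455 FPKM in *Tmem53*-/- pups, against 117, 108 and 109 FPKM. Of 8 osteoblast markers in 9 entries, 6 entries were called higher, against 3.44% of all genes tested. Of T cell markers 6 of 7, of B cell markers 5 of 6, of neutrophil markers 6 of 8 and of mast cell markers 7 of 7 had a mean below 0.5 FPKM. In whole bone, fewer cells of a type and less RNA per cell cannot be told apart. Depth, read from the steps between low values, was 0.871 to 1.2 relative to *Tmem53*+/- replicate 1.

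*Il4ra*, which encodes the chain that binds IL-4 in the receptors of IL-4 and IL-13, had the lowest adjusted p among the members and was lower in *Tmem53*-/- calvaria. Its locus in NCBI build37.2, the build of the deposited table, is chromosome 7, 132695734 to 132726997. *Il4ra* had 20.6, 24.4 and 16.9 FPKM in *Tmem53*-/- pups, against 68.2, 89.8 and 66.3 FPKM in *Tmem53*+/- pups. All *Tmem53*-/- pups were far below all *Tmem53*+/- pups, and *Tmem53*+/- replicate 2 was the highest. The means were 20.6 ± 3.76 FPKM in *Tmem53*-/- and 74.8 ± 13.0 FPKM in *Tmem53*+/- pups (SD, n = 3 each). The log2 fold change by limma was -1.84 (95% interval -2.26 to -1.41, limma adjusted p = 0.00779). An exact two-sided permutation test gave p = 0.1, the smallest that 3 against 3 allow. *Il4ra* was called in 16 of 17 alternatives, with adjusted p between 0.00659 and 0.0507, and was not called without *Tmem53*+/- replicate 3 (0.0507). *Il13ra1*, the chain that pairs with it in the IL-13 receptor, had 19.7, 24.1 and 28.8 FPKM in *Tmem53*-/- pups, against 27.8, 27.9 and 28.8 FPKM in *Tmem53*+/- pups, with overlap (log2 fold change -0.23, 95% interval -0.57 to 0.11, limma adjusted p = 0.332). The ligand genes *Il4* and *Il13* were below the level for testing.

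*Il2rg*, the X-linked gene of the common gamma chain, was the other called chain that takes part in the IL-4 receptor. It had 5.0, 6.32 and 2.01 FPKM in *Tmem53*-/- pups, against 32.1, 11.9 and 27.5 FPKM in *Tmem53*+/- pups. The genotypes did not overlap, *Tmem53*-/- replicate 3 was lowest, and *Tmem53*+/- replicate 2 was well below the other *Tmem53*+/- pups. The log2 fold change was -2.30 (95% interval -3.49 to -1.12, limma adjusted p = 0.0462). With sex as a covariate it was -1.45 and not called, and it was not called without any 1 library other than *Tmem53*+/- replicate 2 (adjusted p 0.0652 without *Tmem53*-/- replicate 3, 0.0785 without *Tmem53*-/- replicate 2, 0.123 without *Tmem53*-/- replicate 1, 0.148 without *Tmem53*+/- replicate 3 and 0.156 without *Tmem53*+/- replicate 1, with a range over its 17 alternatives of 0.0232 to 0.156). *Il2rg* overlaps the entry LOC100503548, with which it may share reads. The order of *Il2rg* levels followed that of the macrophage sums in both genotypes. It followed that of the osteoclast sums in *Tmem53*+/- pups only, since in *Tmem53*-/- pups those were highest in replicate 3. *Ctsk*, at 188, 208 and 329 FPKM, made up most of the *Tmem53*-/- osteoclast sums. *Ctsk* and *Itgb3* were highest in *Tmem53*-/- replicate 3. *Acp5*, *Mmp9*, *Oscar* and *Atp6v0d2* were lowest there and followed the order of *Il2rg*. The part of these cells in the result was not tested.

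All 7 tested members of the common gamma chain family had a log2 fold change below 0, as did 42.5% of all genes tested, with a median of -1.19. 2 of them, *Il4ra* and *Il2rg*, were called, or 28.6% against 7.06% of all genes tested. *Il15*, a ligand of this family, had 1.47, 1.68 and 0.428 FPKM in *Tmem53*-/- pups, against 3.87, 2.22 and 3.47 FPKM in *Tmem53*+/- pups (log2 fold change -1.19, limma adjusted p = 0.0969). *Il15ra*, its private receptor chain, had 5.34, 4.81 and 4.26 FPKM, against 7.04, 5.86 and 8.50 FPKM (-0.52, adjusted p = 0.0942). For both the genotypes did not overlap, and neither was called. With sex as a covariate *Il15* was -0.78 and *Il15ra* -0.27, and *Il15ra* was called without *Tmem53*+/- replicate 2 (-0.64, adjusted p = 0.0384, range over its alternatives 0.0384 to 0.331). The IL-21 receptor gene *Il21r* had 2.55, 2.82 and 0.192 FPKM in *Tmem53*-/- pups, against 4.27, 3.36 and 4.13 FPKM in *Tmem53*+/- pups (-1.20, adjusted p = 0.239). *Il7r*, the IL-7 receptor chain, had 1.31, 1.77 and 0.215 FPKM, against 1.74, 1.41 and 1.99 FPKM, with overlap (-0.62, adjusted p = 0.387). For these receptors the value of *Tmem53*-/- replicate 3, the library with the lowest macrophage sum, was far below the rest. *Il7* itself did not separate the genotypes (-0.01, 95% interval -0.86 to 0.84).

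*Il6*, the ligand of the IL-6 receptor, had 0.126, 0.455 and 0.753 FPKM in *Tmem53*-/- pups, against 3.44, 2.99 and 3.79 FPKM in *Tmem53*+/- pups. Every *Tmem53*-/- pup was below 1 FPKM and every *Tmem53*+/- pup near or above 3 FPKM. The ratio of the means was 0.13, and the log2 fold change was -2.10 on the log2(FPKM + 0.5) scale (95% interval -2.74 to -1.46, limma adjusted p = 0.0168), which understates the change of a gene this low. The *Il6* locus is chromosome 5, 30339700 to 30346509, in NCBI build37.2. Unlike *Il2rg*, it was highest of its genotype in *Tmem53*-/- replicate 3, and *Tmem53*+/- replicate 2 was close to its siblings. *Il6* was called in 13 of 17 alternatives (adjusted p 0.0121 to 0.0905). It was not called without *Tmem53*-/- replicate 2 (0.0533), *Tmem53*+/- replicate 1 (0.0874) or *Tmem53*+/- replicate 3 (0.0905), nor with the replicate numbers as a block.

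*Osm* encodes oncostatin M, another ligand of the gp130 family, known as a product of myeloid cells. It had 0.668, 0.828 and 0.159 FPKM in *Tmem53*-/- pups, against 2.03, 1.91 and 2.77 FPKM in *Tmem53*+/- pups. The genotypes did not overlap, and *Tmem53*-/- replicate 3 was again the lowest. The log2 fold change was -1.43 (95% interval -2.14 to -0.72, limma adjusted p = 0.0425). It was called in 9 of 17 alternatives (adjusted p 0.0363 to 0.144), and not without *Tmem53*-/- replicate 1 (0.11), *Tmem53*-/- replicate 2 (0.0702), *Tmem53*+/- replicate 1 (0.14) or *Tmem53*+/- replicate 3 (0.144), nor with sex as a covariate (-1.26). The call was also lost with a pseudocount of 0.1, with no filter and with the replicate numbers as a block. The order of *Osm* levels followed that of the macrophage sums in *Tmem53*-/- pups but not in *Tmem53*+/- pups. The part of these cells in the result was not tested.

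**Figure D2:**
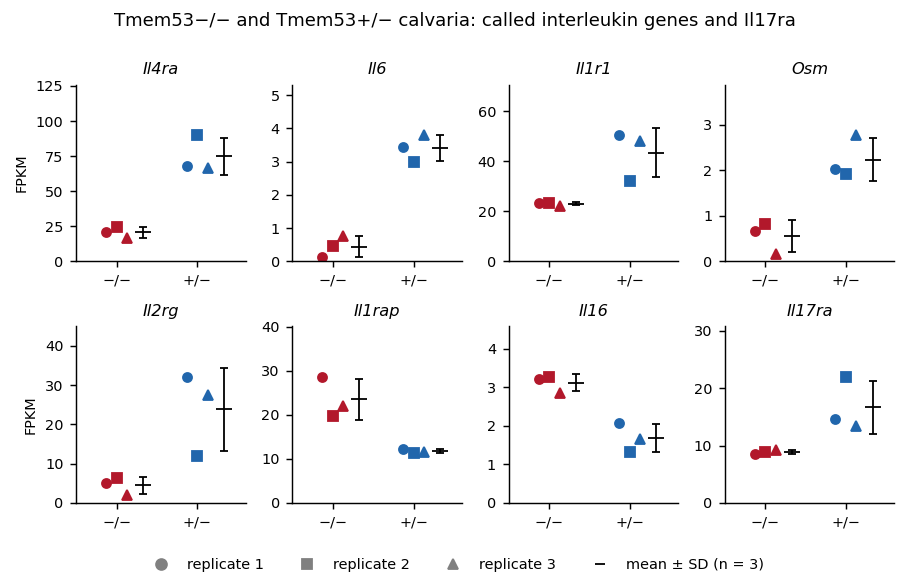
FPKM of the 7 called members and of *Il17ra*, which was just outside the call, in 3 *Tmem53*-/- pups (red, left) and 3 *Tmem53*+/- pups (blue, right), with the mean ± SD beside the points. The genotypes do not overlap in any panel, and *Il4ra* had 16.9 to 24.4 FPKM against 66.3 to 89.8 FPKM.

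The receptors of *Il6* and *Osm* were more abundant than the ligands and were not called. *Il6ra*, the private chain for IL-6, had 2.65, 2.90 and 0.689 FPKM in *Tmem53*-/- pups, against 4.81, 3.86 and 4.58 FPKM in *Tmem53*+/- pups, without overlap (log2 fold change -1.07, 95% interval -2.04 to -0.10, limma adjusted p = 0.149). *Osmr*, a receptor chain for oncostatin M, had 43.2, 37 and 43.9 FPKM, against 48.5, 42.4 and 49.3 FPKM, with overlap (-0.18, 95% interval -0.44 to 0.09, adjusted p = 0.34). *Il6st*, which encodes gp130, had 75.9, 74.8 and 85.4 FPKM in *Tmem53*-/- pups, while 0, 105 and 110 FPKM were listed in *Tmem53*+/- pups. It was the only member listed at 0 beside at least 5 FPKM in another library of its genotype, and such a 0 can be a failed estimate. Without that library, *Il6st* had a log2 fold change of -0.45 and was not called.

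The remaining gp130 family genes gave no call in the main comparison either, and over the 11 tested members of the family the median log2 fold change was -0.08. *Il11ra1*, the IL-11 receptor chain, had 52.1, 50.9 and 54.0 FPKM in *Tmem53*-/- pups, against 48.9, 68.3 and 50.6 FPKM in *Tmem53*+/- pups (-0.08, 95% interval -0.42 to 0.26), and with sex as a covariate it was called lower (-0.38, adjusted p = 0.0463, range over its alternatives 0.0463 to 0.877). *Lifr*, the LIF receptor chain, had 8.40, 8.49 and 10.9 FPKM, against 10.5, 7.13 and 9.56 FPKM (0.04, 95% interval -0.38 to 0.46). *Lif* had 1.41, 1.95 and 3.84 FPKM, against 1.84, 3.02 and 1.57 FPKM (0.08, 95% interval -0.76 to 0.92). For these 3 genes the genotypes overlapped, and the intervals hold differences in either direction. The entry of *Il11*, merged with LOC100503163, had 1.35, 2.22 and 1.95 FPKM, against 1.94, 3.70 and 3.27 FPKM (-0.55, 95% interval -1.16 to 0.06).

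*Clcf1* and *Ctf1*, a pair of neurotrophic ligands of the same family, had positive fold changes without a call. *Clcf1* had 12.3, 8.48 and 8.56 FPKM in *Tmem53*-/- pups, against 7.64, 6.88 and 6.73 FPKM in *Tmem53*+/- pups, without overlap (log2 fold change 0.42, limma adjusted p = 0.152). *Ctf1* had 6.77, 5.20 and 2.63 FPKM, against 2.75, 2.69 and 1.87 FPKM (0.80, adjusted p = 0.169). In *Ctf1* replicate 3 of *Tmem53*-/- lay among the *Tmem53*+/- pups, and without it the gene was called (1.15, adjusted p = 0.041, range over its alternatives 0.041 to 0.394).

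**Figure D3:**
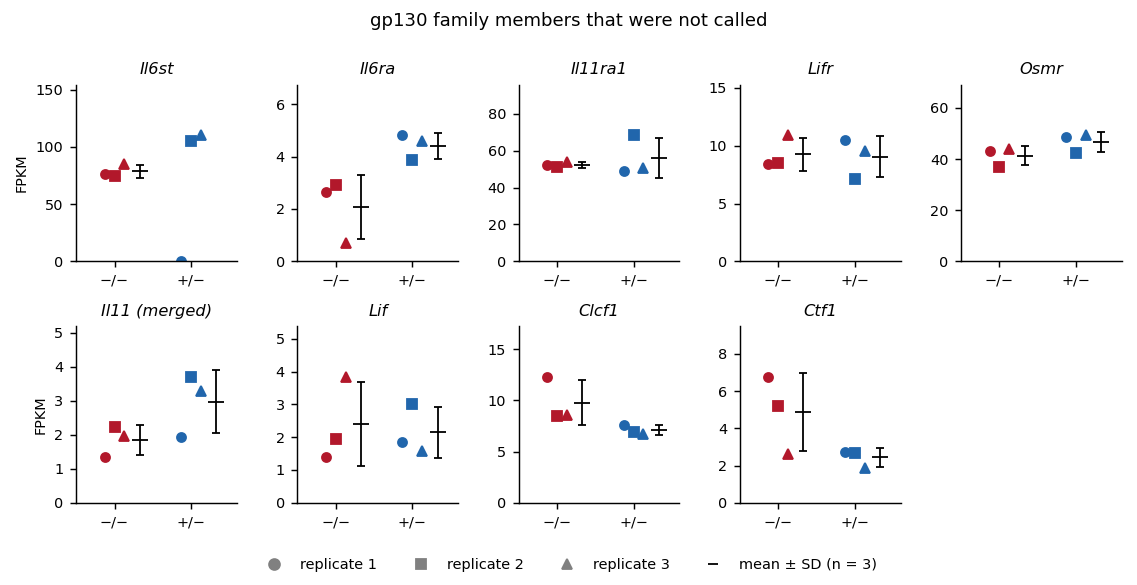
FPKM of 9 gp130 family members that were not called, in *Tmem53*-/- pups (red, left) and *Tmem53*+/- pups (blue, right), with the mean ± SD. No mean is drawn for *Il6st* in *Tmem53*+/- pups, where replicate 1 is listed at 0, and *Il6ra* is lowest in *Tmem53*-/- replicate 3 at 0.689 FPKM.

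The IL-1 receptor and its accessory protein changed in opposite directions. *Il1r1*, the signaling receptor of IL-1, had 23.4, 23.5 and 22.3 FPKM in *Tmem53*-/- pups, against 50.4, 32.2 and 48.0 FPKM in *Tmem53*+/- pups. The *Tmem53*-/- pups were close together and below all *Tmem53*+/- pups, of which replicate 2 was the lowest. The log2 fold change was -0.87 (95% interval -1.30 to -0.45, limma adjusted p = 0.0405), and with sex as a covariate it was -0.47 and called (adjusted p = 0.0348). *Il1rap*, the accessory protein, had 28.6, 19.8 and 22 FPKM in *Tmem53*-/- pups, against 12.3, 11.4 and 11.6 FPKM in *Tmem53*+/- pups. All *Tmem53*-/- pups were above all *Tmem53*+/- pups, and replicate 1 was the highest (0.95, 95% interval 0.60 to 1.30, adjusted p = 0.0237). In NCBI build37.2 the *Il1r1* locus is chromosome 1, 40281924 to 40373022, and that of *Il1rap* is chromosome 16, 26581790 to 26755588, where it overlaps the entry LOC100504628 and may share reads with it.

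Both calls depended on single libraries. *Il1r1* was called in 9 of 17 alternatives (adjusted p 0.00537 to 0.14), and of the leave-outs only without *Tmem53*+/- replicate 2 (0.00537). Without the others it was 0.128 (*Tmem53*-/- replicate 1), 0.0977 (*Tmem53*-/- replicate 2), 0.0795 (*Tmem53*-/- replicate 3), 0.14 (*Tmem53*+/- replicate 1) and 0.137 (*Tmem53*+/- replicate 3). *Il1rap* was called in 12 of 17 (0.0224 to 0.106), and not without *Tmem53*-/- replicate 1 (0.0552), *Tmem53*-/- replicate 2 (0.0504), *Tmem53*+/- replicate 1 (0.0985) or *Tmem53*+/- replicate 3 (0.106), nor with the replicate numbers as a block. In the same 6 fits the number called over all genes ran between 14 and 2216.

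Other members of the IL-1 family were not called. *Il33*, a nuclear cytokine released from damaged cells, had 3.98, 2.56 and 6.18 FPKM in *Tmem53*-/- pups, against 10.4, 15.0 and 7.65 FPKM in *Tmem53*+/- pups, without overlap (log2 fold change -1.30, 95% interval -2.13 to -0.48, limma adjusted p = 0.0705). Without *Tmem53*-/- replicate 3 *Il33* was called (-1.59, adjusted p = 0.0492, range over its alternatives 0.0492 to 0.196). Its receptor gene *Il1rl1* had 3.37, 5.34 and 6.02 FPKM, against 6.31, 11.5 and 6.89 FPKM, also without overlap (-0.68, adjusted p = 0.181, and -1.19 with sex as a covariate). For both *Il33* and *Il1rl1*, replicate 2 was the highest *Tmem53*+/- pup and replicate 3 the highest *Tmem53*-/- pup. *Il18*, the ligand of highest level, had 9.0, 11 and 9.82 FPKM, against 7.07, 8.68 and 7.71 FPKM (0.33, adjusted p = 0.138), and it overlaps entries of *Bco2* and *Tex12*. The accessory chain of its receptor, *Il18rap*, had 0.408, 0.400 and 0.373 FPKM, against 0.631, 0.540 and 0.759 FPKM (-0.35, adjusted p = 0.208).

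None of the 3 tested antagonists and decoys was called by limma, and 0 had an unadjusted p under 0.05. *Il1rn*, the IL-1 receptor antagonist, had 27.5, 15.4 and 10.5 FPKM in *Tmem53*-/- pups, against 52.4, 16.9 and 49.4 FPKM in *Tmem53*+/- pups, with overlap (log2 fold change -1.08, 95% interval -2.33 to 0.18, limma adjusted p = 0.231). *Tmem53*+/- replicate 1 and replicate 3 stood apart from the other 4 pups, as they did for osteoclast markers and *Xist*, and with sex as a covariate the log2 fold change of *Il1rn* was -0.03. The IL-1 decoy receptor gene *Il1r2*, below the level for testing, had 0.340, 0.388 and 0.299 FPKM, against 0.981, 0.338 and 0.604 FPKM, and *Il1f10* had 0.0314, 0.162 and 0.0554 FPKM, against 1.65, 0.0362 and 0.614 FPKM. They showed the same pair of high pups. Epidermal markers, a list added after these values were seen, summed to 15.4, 12.5 and 5.36 FPKM, against 5.91, 14.6 and 6.55 FPKM. Of these 11 markers 8 had a mean below 0.5 FPKM, so the sum rests on few of them. The part of epidermis in these values was not tested. *Il18bp*, the IL-18 binding protein, had 2.02, 2.38 and 1.44 FPKM, against 2.69, 2.38 and 1.87 FPKM (-0.21, adjusted p = 0.525), at a locus shared with *Numa1*.

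*Il16*, whose product attracts CD4-bearing cells, was the only ligand called higher. It had 3.22, 3.27 and 2.86 FPKM in *Tmem53*-/- pups, against 2.06, 1.33 and 1.66 FPKM in *Tmem53*+/- pups, without overlap. The difference was small beside those of *Il4ra* and *Il6*, with a log2 fold change of 0.74 (95% interval 0.36 to 1.12, limma adjusted p = 0.045). The *Il16* locus is chromosome 7, 90791426 to 90894892, in NCBI build37.2. It was called in 8 of 17 alternatives (adjusted p 0.035 to 0.143), and not without *Tmem53*-/- replicate 1 (0.142), 2 (0.116) or 3 (0.0638), nor without *Tmem53*+/- replicate 1 (0.0995) or 3 (0.143). *Il17d*, a ligand of the IL-17 family, had 13.8, 8.97 and 4.63 FPKM in *Tmem53*-/- pups, against 4.73, 2.56 and 3.54 FPKM in *Tmem53*+/- pups, and replicate 3 of *Tmem53*-/- overlapped (1.14, adjusted p = 0.122). Without that replicate *Il17d* was called (1.54, adjusted p = 0.0442, range over its alternatives 0.0442 to 0.259).

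Among the other receptors, *Il17ra* and *Il3ra* were nearest to the call. *Il17ra*, the chain shared by IL-17 cytokines, had 8.46, 8.93 and 9.26 FPKM in *Tmem53*-/- pups, against 14.6, 22 and 13.4 FPKM in *Tmem53*+/- pups, without overlap (log2 fold change -0.84, 95% interval -1.29 to -0.39, limma adjusted p = 0.0502). It was called in 6 of 17 alternatives (0.0114 to 0.151). Among them were the fit with sex as a covariate (-1.26, adjusted p = 0.0114) and that without *Tmem53*+/- replicate 2 (0.015). *Il3ra*, the IL-3 receptor chain, had 16.9, 20.9 and 21.2 FPKM, against 29.1, 27.1 and 26.8 FPKM, without overlap (-0.49, adjusted p = 0.0533, called in 2 of 17). *Il17rd*, a receptor chain that also dampens FGF signaling, had 2.05, 2.58 and 3.74 FPKM, against 2.48, 3.03 and 2.65 FPKM, with overlap (95% interval -0.49 to 0.49).

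All 3 tested receptor chains of the IL-10 family had *Tmem53*-/- pups below *Tmem53*+/- pups without overlap, as 16.0% of all genes tested did. None was called, and all 3 had an unadjusted p under 0.05 by limma, as did 27.9% of all genes tested. *Il10rb*, the shared chain, had 19.3, 22.3 and 14.5 FPKM in *Tmem53*-/- pups, against 39.5, 23.9 and 34.8 FPKM in *Tmem53*+/- pups (log2 fold change -0.78, limma adjusted p = 0.09), and was called without *Tmem53*+/- replicate 2 (0.0317), while with sex as a covariate its log2 fold change was -0.36 (0.347, the ends of the range over its alternatives). *Il10ra*, the private chain for IL-10, had 2.09, 3.04 and 0.422 FPKM, against 5.13, 5.22 and 4.59 FPKM (-1.43, adjusted p = 0.115). *Il20rb* had 0.742, 0.525 and 0.640 FPKM, against 1.43, 0.788 and 2.12 FPKM (-0.72, adjusted p = 0.151), and was called without *Tmem53*+/- replicate 2 (0.0335), while with sex as a covariate it was -0.19 (0.636, the ends of the range over its alternatives). The ligand gene *Il10*, too low for testing, had 0, 0.0207 and 0.0336 FPKM, against 0.483, 0.163 and 0.359 FPKM. As in the common gamma chain family, *Il10ra* was lowest in *Tmem53*-/- replicate 3.

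**Figure D4:**
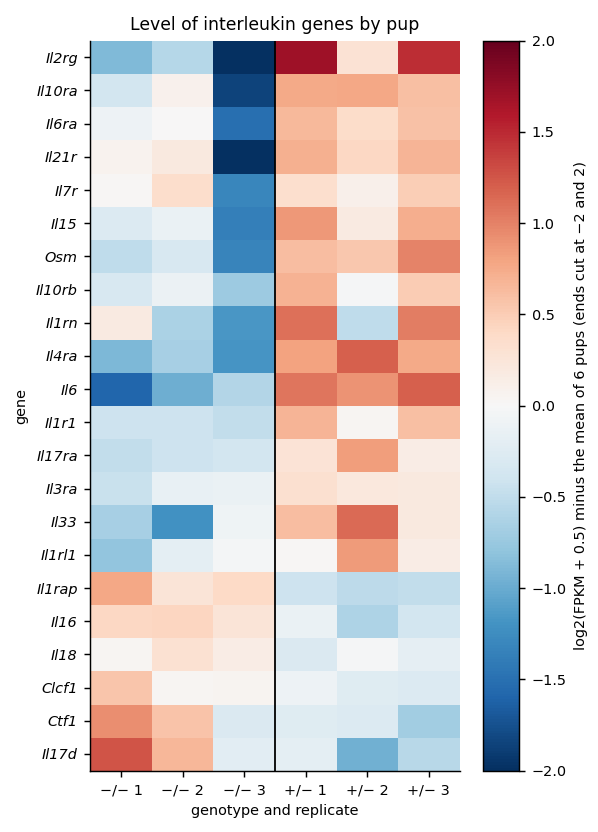
Level of 22 tested members in each pup, as log2(FPKM + 0.5) minus the mean of the 6 pups (red above, blue below, ends cut at 2 and -2), with *Tmem53*-/- pups left of the line and *Tmem53*+/- pups right of it. The upper rows, from *Il2rg* to *Osm*, are darkest blue in *Tmem53*-/- replicate 3, while *Il6* and *Il33* are not.

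The replicate that was lowest among the *Tmem53*-/- pups was replicate 3 for 19 of the 40 tested members, replicate 1 for 12 and replicate 2 for 9. Among the *Tmem53*+/- pups, replicate 2 was lowest for 21 of 40. *Il2rg*, *Il10ra*, *Il6ra*, *Il21r*, *Il7r*, *Il15* and *Osm* were lowest in *Tmem53*-/- replicate 3, as were the summed macrophage markers. Also lowest in that replicate were *Il4ra* and *Il1r1* and, with positive log2 fold changes, *Il16*, *Il17d* and *Ctf1*. *Il6*, *Il33* and *Il1rl1* were highest of their genotype there. Without that library the log2 fold change was -0.85 for *Il10ra*, -0.80 for *Il15*, -0.58 for *Il6ra*, -0.47 for *Il21r* and -0.12 for *Il7r*, none of them called. *Il2rg* was not called without it either, while *Osm* was still called lower.

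Genes that act downstream of these receptors were taken from a list of 45 JAK, STAT, SOCS, PIAS, adaptor and NF-kB genes, of which 42 were in the table in 44 entries and 43 entries were tested. 0 were called higher and 5 lower, or 11.6% against 7.06% of all genes tested, and 11 (25.6%) had an unadjusted p under 0.05 by limma, against 27.9% of all genes tested. The median log2 fold change of the list was -0.08. *Nfkbia*, the inhibitor of NF-kB that NF-kB itself induces, had 15.0, 16.4 and 9.95 FPKM in *Tmem53*-/- pups, against 59.2, 29.1 and 48.2 FPKM in *Tmem53*+/- pups (log2 fold change -1.66, limma adjusted p = 0.0323). *Nfkb2*, an NF-kB subunit, had 13.6, 15.2 and 14.3 FPKM, against 26.2, 24.0 and 23.3 FPKM (-0.75, adjusted p = 0.014). *Nfkbiz*, a nuclear cofactor needed for induction of *Il6*, had 3.42, 4.26 and 4.91 FPKM, against 7.29, 9.27 and 8.25 FPKM (-0.91, adjusted p = 0.0287). In all 3 the genotypes did not overlap, and *Nfkb2* varied least within a genotype.

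The other called genes of the list were *Cebpd*, a C/EBP factor, and *Socs3*, the feedback inhibitor of gp130. *Cebpd* had 32.6, 29.9 and 34.2 FPKM in *Tmem53*-/- pups, against 55.4, 59.6 and 49.5 FPKM in *Tmem53*+/- pups (log2 fold change -0.76, limma adjusted p = 0.0209). *Socs3* had 19.3, 20.4 and 21.9 FPKM, against 32.7, 26.6 and 31.1 FPKM (-0.54, adjusted p = 0.04). The genotypes did not overlap for either. The STAT factors that the receptors use were not called: *Stat3* had a log2 fold change of -0.04 (95% interval -0.32 to 0.24) and *Stat6*, which acts behind the IL-4 receptor, of -0.12 (95% interval -0.32 to 0.08). *Rela*, the main NF-kB subunit, had 0.02 (95% interval -0.19 to 0.23). Of the 43 entries, 14 had *Tmem53*-/- below without overlap and 4 above, or 41.9%, against 37.2% of all genes tested. Among these and not called were *Jak2* (-0.44, limma adjusted p = 0.0685), *Jak1* (-0.34), *Relb* (-0.29), *Cebpb* (-0.64) and *Ptpn6* (-2.66), all lower. *Pias3* (0.26), *Stat5a* (0.23) and *Tab2* (0.24) were higher without overlap and not called. All 5 calls were lost without *Tmem53*-/- replicate 1, *Tmem53*-/- replicate 2, *Tmem53*+/- replicate 1 or *Tmem53*+/- replicate 3, with adjusted p between 0.0504 (*Nfkb2* without *Tmem53*-/- replicate 2) and 0.145 (*Socs3* without *Tmem53*+/- replicate 1). Those of *Nfkbia* and *Socs3* were also lost without *Tmem53*-/- replicate 3 (0.0545 and 0.0555) and with sex as a covariate (log2 fold changes -1.08 and -0.37).

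Of 22 related cytokine genes, 21 were in the table and 16 were tested, with 1 called higher and 3 lower, or 25.0% against 7.06% of all genes tested (3.44% higher and 3.63% lower). *Tnfsf11*, which encodes RANKL, the cytokine that drives osteoclast formation, had 4.36, 3.37 and 4.09 FPKM in *Tmem53*-/- pups, against 16.6, 9.34 and 16.7 FPKM in *Tmem53*+/- pups (log2 fold change -1.69, limma adjusted p = 0.0219). *Tnfrsf11b*, which encodes its decoy receptor osteoprotegerin, had 62.2, 33.1 and 65.3 FPKM, against 10, 15 and 13.2 FPKM (1.99, adjusted p = 0.0222). The receptor gene *Tnfrsf11a* had 1.12, 2.1 and 0.2 FPKM, against 12.9, 5.25 and 9.79 FPKM (-2.69, adjusted p = 0.0387). For all 3 genes the genotypes did not overlap, with the ligand and receptor of RANKL signaling lower and the decoy higher. *Csf2rb2*, the mouse-specific IL-3 receptor beta chain, had 1.04, 1.64 and 0.184 FPKM, against 6.22, 3.59 and 5.41 FPKM (-2.06, adjusted p = 0.0447). *Tnfrsf11a* and *Csf2rb2* were lowest in *Tmem53*-/- replicate 3, as the macrophage markers were.

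Each of these calls was lost in some leave-outs. *Tnfsf11* was not called without *Tmem53*-/- replicate 1 (0.0828), *Tmem53*-/- replicate 2 (0.0643), *Tmem53*+/- replicate 1 (0.0937) or *Tmem53*+/- replicate 3 (0.0958), with adjusted p between 0.00583 and 0.0958 over its 17 alternatives. *Tnfrsf11b* was not called without *Tmem53*-/- replicate 1 (0.0846), *Tmem53*+/- replicate 1 (0.0947) or *Tmem53*+/- replicate 3 (0.096), with a range of 0.0203 to 0.0967. For *Tnfrsf11a* and *Csf2rb2* the same 4 libraries as for *Tnfsf11* ended the call, with the highest adjusted p without *Tmem53*+/- replicate 1 (0.141 and 0.157). With sex as a covariate *Tnfrsf11b* (1.74), *Tnfrsf11a* (-2.0) and *Csf2rb2* (-1.64) kept their direction and were not called.

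**Figure D5:**
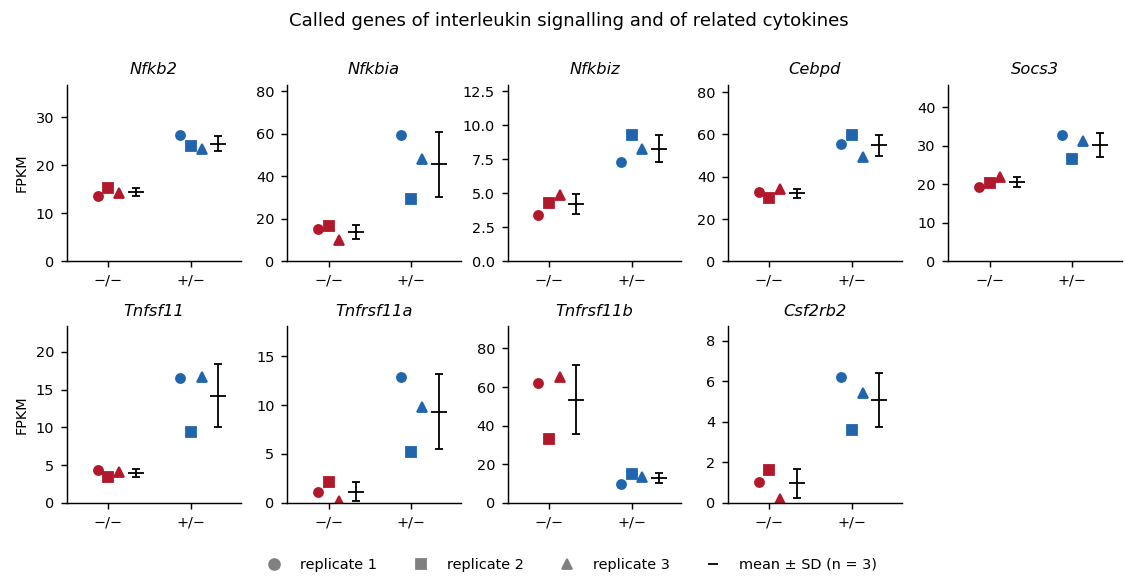
FPKM of 9 called genes of the downstream and related lists in *Tmem53*-/- pups (red, left) and *Tmem53*+/- pups (blue, right), with the mean ± SD. *Tnfrsf11b* is higher in *Tmem53*-/- pups, and the other 8 genes are lower, with *Tnfsf11* at 3.37 to 4.36 FPKM against 9.34 to 16.7 FPKM.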

How the data were processed

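RNA was extracted from whole calvaria of 6 pups, 3 per genotype, depleted of ribosomal RNA and made into directional paired-end libraries. Per the labels and the study's methods, the authors removed adapters (FASTX-toolkit), mapped reads to NCBI build37.2 by TopHat2 2.1.1 and deposited FPKM from Cufflinks and Cuffdiff 2.1.1. How Cuffdiff scaled the libraries is not given in the sources used here.

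FPKM were used as deposited. Depth enters only as the relative value of 1 fragment, so low values are judged by the spread between pups. Entries without a symbol (7233 of 32350) or with a mean below 0.5 FPKM were left out of tests, leaving 13535. Log2(FPKM + 0.5) was tested between genotypes by limma 3.58.1 (R 4.3.3; eBayes with a variance trend), which takes the place of Cuffdiff because no counts were used. Benjamini-Hochberg adjustment ran over all 13535, and called means an adjusted p under 0.05. For single genes an exact permutation test, two-sided, was added. The procedure was tested on simulated data. The 17 alternatives changed the pseudocount, filter, scaling, variance trend, replicate block, treatment of values at 0, sex covariate (from *Xist*) and libraries left out. Labels call the replicates separate samples, and p-values measure only the spread between these pups.

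Members and lists were chosen with earlier results of these data known. Named are all called members, all whose genotypes do not overlap, the 5 ligands and 8 receptor chains of highest mean, the gp130 family, *Il1rn*, *Il1r2*, *Il1rl1*, *Il33*, *Il18bp*, *Il2rg*, *Il7r*, *Il10ra*, *Il10rb*, *Il17rd* and *Tnfsf11*, members at 0 beside at least 5 FPKM, and called genes of the downstream and related lists. 1 gene of the related list is not reported here and was left out of its counts. *Il1f10*, *Il10*, *Il7*, *Stat3*, *Stat6*, *Rela* and the ligands at 0 were added after their values were seen. So were the single osteoclast markers and the downstream genes named without a call.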

Additional observations from a re-analysis of the deposited data

How the results depend on the processing

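The median log2 fold change of the members was -0.36 and stayed below 0 in all 17 alternatives. It was -0.52 with a pseudocount of 0.1, -0.24 with a pseudocount of 1, -0.50 with a filter at 1 FPKM and -0.11 with no filter, and between -0.40 and -0.30 without 1 library. With no filter 1 member was called higher and 2 lower, 3 downstream genes were called lower and 621 genes were called in all. Median ratio scaling and sum scaling left 1 member called higher each. Without 1 library, 0 to 3 members were called higher and 0 to 10 lower, 0 to 1 downstream genes higher and 0 to 6 lower, and 14 to 2216 genes in all. 0 members were called without *Tmem53*+/- replicate 3, and 10 were called lower without *Tmem53*+/- replicate 2, the merged entry of *Il4i1* and *Nup62* among them. The cause was not tested, and such fits have 5 libraries.

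Samples with the same number did not deviate together (correlations 0.047, -0.23 and -0.138). With 3 pups per genotype, and sex unequal among the *Tmem53*+/- pups, this cannot tell whether the numbers pair the pups. A fit with the replicate block left 0 members called higher and 1 lower (*Il4ra*), 0 downstream genes and 30 genes in all.

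Reversals were confined, among the named genes, to 5 members that the main comparison did not call. *Il11ra1* was -0.17 to 0.07 without 1 library, and -0.38 and called with the sex covariate. *Il17rd*, at 0.0026, was -0.0016 with a pseudocount of 0.1, -0.04 under each scaling, -0.13 with the sex covariate and -0.20 to 0.17 without 1 library. *Il6st* was -0.45 with values at 0 taken as missing, -0.42 with the sex covariate and -0.45 to 3.44 without 1 library. *Lif* was -0.37 with the sex covariate and -0.25 to 0.34 without 1 library. *Lifr* was -0.0096 under median ratio scaling, -0.0047 under sum scaling and -0.12 to 0.15 without 1 library.

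The table gives FPKM without counts, so no counting interval can be given for members below 1 FPKM such as *Il6* in *Tmem53*-/- pups.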
